A study of Mus musculus with 4 samples.

Results

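The expression of 9 factors tied to formative and primed pluripotency was compared between wild-type (WT) and Npac knockout (KO) mouse embryonic stem cells (mESCs). The factors were Fgf5, Otx2, Pou3f1, Zic2, Zic5, Foxd3, Sall2, Grhl2 and Tead2, chosen by name, and they made up 9 of the 56748 genes in the deposited tables. RNA-seq was performed on 4 libraries of E14, a mouse ES cell line grown feeder-free on gelatin in medium with serum and the cytokine LIF. WT1 and WT2 came from unedited WT cells, and KO1 and KO2 came from 2 Npac KO clones, 1 library from each, made by electroporating Cas9 with guides against exon 3 of Npac and selecting with puromycin. The comparison asked whether these factors differed between the genotypes in this medium. Nothing in the labels says that WT1 and WT2 were separate cultures, so p-values measure the spread between these libraries, and a clone cannot be told apart from its edit.

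Naive mESCs resemble the epiblast before implantation, and primed cells resemble the epiblast after it. Formative cells lie between, when the naive factors decline and the cells become competent to form the germ layers. Otx2 and Pou3f1 (also called Oct6) bind enhancers that open in this transition, Fgf5 encodes a secreted FGF ligand that is the classical marker of the post-implantation epiblast, and Foxd3 and Grhl2 are factors that open or reshape epiblast enhancers. Zic2 and Zic5 are zinc finger factors of a divergent gene pair, Sall2 is a zinc finger relative of the pluripotency factor Sall4, and Tead2 is a DNA-binding partner of the Hippo effectors Yap1 and Wwtr1.

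Foxd3 and Pou3f1 were down-regulated in Npac KO cells. Foxd3 stood at 28.9% of its WT mean and Pou3f1 at 54.3%. None of the other factors passed the test: Zic2, Zic5, Sall2 and Tead2 had higher means in KO cells, Otx2 had a lower mean, Grhl2 was near its WT level, and Fgf5 had at most 3 reads in any library. Of the 8 factors that passed the filter on low counts, 0 were called up and 2 were called down by edgeR's quasi-likelihood test, where a call needs a fold change above 1.5 and a p under 0.05 after Benjamini-Hochberg adjustment. Over all 18157 genes tested, 11.0% were called up and 10.7% were called down. When the p was left unadjusted, 0 factors were called up and 3 were called down, the third being Otx2. Over all 18157 genes tested, 3074 were then called up and 3090 down. DESeq2 called 0 up and 3 down, and limma-trend on FPKM called 0 in either direction. Over all genes, DESeq2 called 2016 up and 2076 down, and limma-trend called 1470 to 1645 up and 1381 to 1510 down. Foxd3 and Pou3f1 lost their calls without KO2, and Zic2 gained one, in a fit that called fewer genes over all genes. Their log2 fold changes there were -1.40 for Foxd3, -1.05 for Pou3f1 and 1.53 for Zic2. Zic2 (1.85) and Zic5 (1.77) were called up without WT1, in a fit that called more genes over all genes. The median log2 fold change of the 8 factors was 0.22, against 0.0015 over all genes tested. In bulk RNA, fewer cells expressing a gene and less RNA in each cell cannot be told apart.

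Promoter windows are shown for Foxd3, the factor with the largest fall, and for Otx2 and Zic5, whose windows held a match to a motif bound by a family of these factors. The windows are from RefSeq on GRCm38.p6 and run from 250 bases before to 50 after an annotated start, 5′ to 3′ on the strand of the gene. Foxd3 lies at chr4:99656049-99656348 on the plus strand, the third listed start of Otx2 at chr14:48665060-48665359 on the minus strand and Zic5 at chr14:122465609-122465908 on the minus strand. Capitals mark the motif matches.
Foxd3: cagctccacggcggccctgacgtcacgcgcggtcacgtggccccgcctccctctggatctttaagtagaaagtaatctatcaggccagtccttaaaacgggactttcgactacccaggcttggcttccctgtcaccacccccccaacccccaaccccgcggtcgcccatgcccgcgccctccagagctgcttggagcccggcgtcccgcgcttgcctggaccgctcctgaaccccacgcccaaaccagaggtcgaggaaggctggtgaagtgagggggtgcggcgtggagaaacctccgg
Otx2: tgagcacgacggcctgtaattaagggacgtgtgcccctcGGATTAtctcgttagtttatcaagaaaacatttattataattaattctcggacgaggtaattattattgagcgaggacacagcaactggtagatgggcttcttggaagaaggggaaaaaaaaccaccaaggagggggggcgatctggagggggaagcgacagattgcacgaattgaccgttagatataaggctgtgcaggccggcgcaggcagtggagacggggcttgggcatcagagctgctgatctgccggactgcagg
Zic5: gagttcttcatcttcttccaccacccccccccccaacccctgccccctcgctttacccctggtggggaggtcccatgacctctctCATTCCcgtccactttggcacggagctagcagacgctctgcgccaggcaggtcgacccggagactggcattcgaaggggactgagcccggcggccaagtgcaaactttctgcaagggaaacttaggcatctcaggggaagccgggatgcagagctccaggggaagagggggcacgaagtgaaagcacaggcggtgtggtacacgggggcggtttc

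The search covered both strands for the letters TAATCC (OTX factors), ATGCAAAT (POU octamer), GGAATG (TEAD factors), AACCGGTT (GRHL factors), CCTGCTG (ZIC factors) and TAAACA (forkhead factors), none of which contains another. Of 10 windows for 6 of the factors, 2 held a match. The Otx2 window held the reverse complement of the OTX letters from 211 bases upstream of the start, and the Zic5 window held the reverse complement of the TEAD letters from 165 bases upstream. Among 32851 windows of the same length, 7.06% held the OTX letters, 1.74% the POU octamer, 14.7% the TEAD letters, 0.146% the GRHL letters, 10.5% the ZIC letters and 13.4% the forkhead letters. The Foxd3 window held 25 CpG dinucleotides, the Otx2 window 16 and the Zic5 window 15, against a median of 7 and an upper quartile of 20 over all windows. The share of all windows with a match to any of these motifs was not counted, so 2 of 10 has no background beside it. These letters describe the windows and do not show binding. Zic2, Pou3f1 and Grhl2 had no window in the table used.

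The total count lay between 15850805 and 16965120 per library. Npac, listed as Glyr1, had 3961 reads in WT1 and 3115 in WT2, against 744 in KO1 and 888 in KO2, and it fell by 2.14 on the log2 scale (SE 0.23, adjusted p = 0.00174 by the quasi-likelihood test of edgeR, Benjamini-Hochberg adjusted). Of 8 general markers of ES cells, including Pou5f1, Sox2 and Nanog, each had at least 1914 reads in every library. Across genes, log2 CPM correlated at 0.961 between the WT libraries and at 0.979 between the KO libraries. Hprt, an X-linked housekeeping gene, had 5 and 6 reads in WT1 and WT2, against 2932 and 2710 in KO1 and KO2, so the genotypes also differed at this locus. Whether the KO clones came from the same E14 subline as the WT cells is not given in the sources used here, and a difference between sublines cannot be told apart from the knockout in any of these comparisons. Genes of chromosomes 8 and 11 had medians 0.51 to 0.56 higher in the KO libraries on the log2 scale. None of the 9 factors lies on these chromosomes, and removing each chromosome's median left the same 2 factors called.

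Fgf5 (ENSMUSG00000029337, chromosome 5 from 98402043 to 98424889, plus strand, in the coordinates of the deposited tables) was at the detection floor. WT1 and WT2 held 3 reads and 1 read, and KO1 and KO2 held 1 read and 2 reads. A count of 3 corresponded to 0.172 to 0.196 CPM in these libraries, and no fold change is given because both genotypes lay at or under that floor. A fall in Fgf5, or a difference under the floor, was therefore not detectable at this depth. No rise above the floor was seen in KO1 or KO2. Its paralog Fgf4, the FGF ligand made by ES cells themselves, had 4986 and 3962 reads in WT1 and WT2, against 6308 and 5605 in KO1 and KO2, and its log2 fold change of 0.40 did not pass the test (adjusted p = 0.251).

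**Figure D1:**
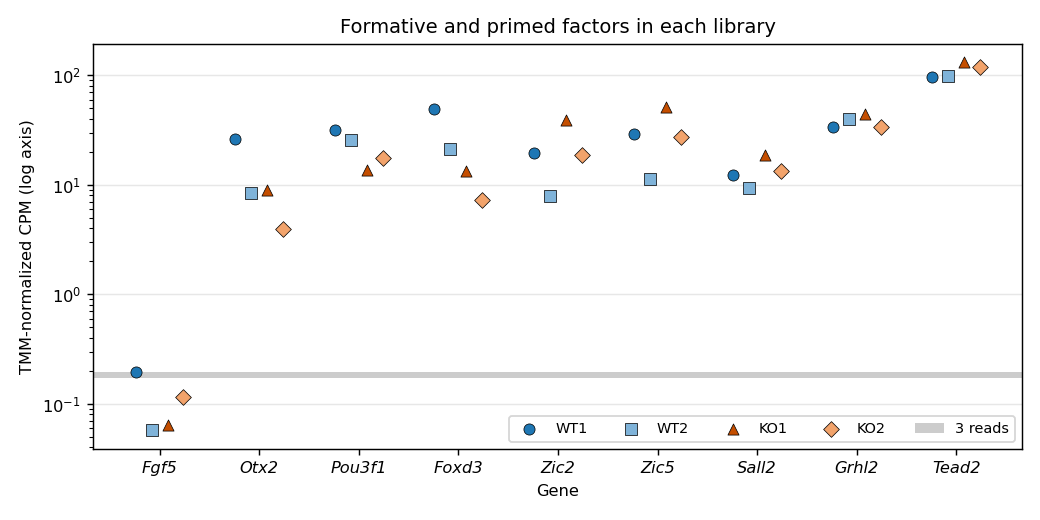
Normalized expression of the 9 factors in each library, in TMM-normalized CPM on a log axis, with 1 point per library and a grey band at the level of 3 reads. Fgf5 lies at or under the band, both KO libraries lie below both WT libraries for Pou3f1 and Foxd3, and both lie above them for Sall2 and Tead2.

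Foxd3, a forkhead factor required to keep the epiblast and ES cells from losing pluripotency, fell the most. Its gene (ENSMUSG00000067261) lies on chromosome 4 from 99544536 to 99546859 on the plus strand. Foxd3 was counted 758 times in WT1 and 371 times in WT2, and 206 times in KO1 and 125 times in KO2. Both KO libraries lay below both WT libraries, yet WT1 was 2.34 times as high as WT2 in normalized counts. The mean was 35.4 ± 20.1 CPM in WT cells (CPM after TMM normalization, SD, n = 2), against 10.2 ± 4.26 CPM in KO cells (SD, n = 2), which is 3.46 times lower. The log2 fold change was -1.79 (SE 0.45, 95% interval -2.83 to -0.75, adjusted p = 0.0282 by the quasi-likelihood test of edgeR, Benjamini-Hochberg adjusted). Without WT1 the log2 fold change was -1.08 and still passed, and without KO2 it was -1.40 and did not pass (adjusted p = 0.0825), against 2.7e-12 to 0.0727 under the other alternatives.

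Pou3f1, a POU-domain factor induced as cells leave the naive state, also fell. Its gene (ENSMUSG00000090125) lies on chromosome 4 from 124550600 to 124554448 on the plus strand. Pou3f1 was counted 486 times in WT1 and 450 times in WT2, and 214 times in KO1 and 303 times in KO2. Replicates lay closer together than for Foxd3, with 31.8 and 25.8 CPM in the WT libraries, against 13.8 and 17.5 CPM in the KO libraries, and the groups did not overlap. The mean went from 28.8 ± 4.29 CPM in WT cells (SD, n = 2) to 15.6 ± 2.64 CPM in KO cells (SD, n = 2), a log2 fold change of -0.88 (SE 0.25, 95% interval -1.45 to -0.30, adjusted p = 0.0414 by edgeR's quasi-likelihood test). The call was lost without KO1 (log2 fold change -0.72, adjusted p = 0.34) and without KO2 (-1.05, adjusted p = 0.141), and the adjusted p ran from 3.4e-04 to 0.0631 under the other alternatives.

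Otx2, a homeodomain factor that directs the exit toward the formative state, had 401 reads in WT1 and 147 in WT2, against 139 in KO1 and 69 in KO2. Its gene (ENSMUSG00000021848) lies on chromosome 14 from 48895134 to 48911276 on the minus strand. WT1 stood apart at 26.3 CPM, while WT2 at 8.41 CPM was below KO1 at 8.94 CPM, so the genotypes overlapped. The mean was 17.3 ± 12.6 CPM in WT cells (SD, n = 2), against 6.46 ± 3.50 CPM in KO cells (SD, n = 2). The log2 fold change of -1.42 (SE 0.58, 95% interval -2.77 to -0.07) did not pass over all genes tested (adjusted p = 0.117 by edgeR's quasi-likelihood test, and 6.0e-08 to 0.456 over the alternatives). Without WT1 it was -0.41, and without KO1 it was -2.12 and passed (adjusted p = 0.023). DESeq2 gave -1.43 with an adjusted p of 0.0333. The reading for Otx2 thus rested on WT1 and on the test used.

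Zic2 and Zic5 ran in parallel across the libraries. Zic2 (ENSMUSG00000061524) lies on chromosome 14 from 122712847 to 122717264 on the plus strand, and Zic5 (ENSMUSG00000041703) lies from 122694207 to 122703089 on the minus strand, so the genes face away from each other with 9758 bases between their starts. Zic2 was counted 301 times in WT1 and 138 times in WT2, and 611 times in KO1 and 323 times in KO2. Zic5 was counted 443 times in WT1 and 197 times in WT2, and 795 times in KO1 and 473 times in KO2. In both genes KO1 was highest and WT2 lowest, and in normalized counts KO2 lay just under WT1, at 18.7 against 19.7 CPM for Zic2 and 27.3 against 29.0 CPM for Zic5. The ratio of Zic5 to Zic2 in FPKM, which is corrected for gene length, stayed between 0.766 and 0.867 in the 4 libraries. Zic2 averaged 13.8 ± 8.35 CPM in WT cells and 29.0 ± 14.6 CPM in KO cells (SD, n = 2 each), and its log2 fold change of 1.07 (SE 0.48, 95% interval -0.05 to 2.19) did not pass (adjusted p = 0.148 by edgeR's quasi-likelihood test, and 5.6e-05 to 0.675 over the alternatives). Zic5 averaged 20.1 ± 12.5 CPM in WT cells and 39.2 ± 16.8 CPM in KO cells (SD, n = 2 each), with a log2 fold change of 0.96 (SE 0.46, 95% interval -0.10 to 2.03, adjusted p = 0.166). Without WT1 the log2 fold changes were 1.85 for Zic2 and 1.77 for Zic5 and both passed, whereas without KO1 they were 0.43 and 0.44.

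Sall2 (ENSMUSG00000049532, chromosome 14 from 52548629 to 52566219, minus strand) had 186 reads in WT1 and 162 in WT2, against 291 in KO1 and 233 in KO2. Both KO libraries lay above both WT libraries, although KO2 at 13.5 CPM was close to WT1 at 12.2 CPM. Its mean was 10.7 ± 2.06 CPM in WT cells, against 16.1 ± 3.72 CPM in KO cells (SD, n = 2 each), and the log2 fold change of 0.59 (SE 0.30, 95% interval -0.12 to 1.29) did not pass (adjusted p = 0.2 by edgeR's quasi-likelihood test).

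Tead2 (ENSMUSG00000030796, chromosome 7 from 44865177 to 44883068, plus strand) was the most highly counted of the factors and had the tightest replicates. It had 1483 reads in WT1 and 1728 in WT2, against 2039 in KO1 and 2077 in KO2. The WT libraries stood at 97.1 and 98.9 CPM and the KO libraries at 131 and 120 CPM, so the groups did not overlap. The difference was 1.28-fold, below the fold threshold, with a log2 fold change of 0.36 (SE 0.17, 95% interval -0.04 to 0.76, adjusted p = 0.171 by edgeR's quasi-likelihood test). The interval excludes a doubling of Tead2.

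Grhl2 (ENSMUSG00000022286, chromosome 15 from 37233280 to 37363813, plus strand), a grainyhead factor that opens the enhancers of epithelial genes, had 515 reads in WT1 and 696 in WT2, against 689 in KO1 and 582 in KO2. The genotypes overlapped, with 33.7 and 39.8 CPM in the WT libraries, against 44.3 and 33.6 CPM in the KO libraries. The log2 fold change was 0.083 (SE 0.22, 95% interval -0.43 to 0.60, adjusted p = 0.817 by edgeR's quasi-likelihood test), and it changed sign without WT1 (-0.059) and without KO1 (-0.139).

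**Figure D2:**
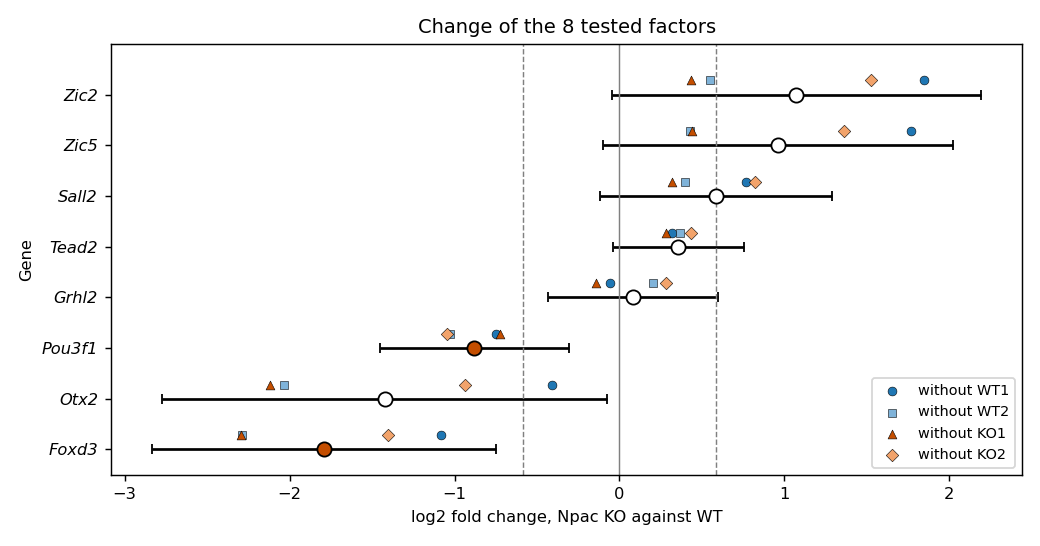
Log2 fold change of KO against WT for the 8 factors tested, with the edgeR 95% interval (bars). Filled circles mark the 2 factors called, small symbols the value without 1 library, and dashed lines a fold change of 1.5. The values for Otx2, Zic2 and Zic5 spread widely with the library left out, and Tead2 stayed between 0.28 and 0.44.

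Both KO libraries lay below both WT libraries for 2 of the 8 factors tested (Pou3f1 and Foxd3) and above them for 2 (Sall2 and Tead2). Over all genes tested, 32.5% had both KO libraries below and 33.2% had both above, so these counts lay close to the background. The other factors overlapped between genotypes. The WT libraries differed by more than 2-fold in 4 of the 8 factors (Otx2, Foxd3, Zic2 and Zic5), against 15.8% of the 17836 genes with reads in every library. The KO libraries differed by more than 2-fold in 2 of the 8 (Otx2 and Zic2), against 7.15% of the genes. In Otx2, Foxd3, Zic2, Zic5 and Sall2 the library numbered 1 was higher than the library numbered 2 in both genotypes.

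On the FPKM scale, which allows levels to be set side by side between genes, the order of the factors differed between genotypes. In WT cells Tead2 was highest at 20.3 FPKM (mean, n = 2), followed by Foxd3 at 15.1, Pou3f1 at 7.42, Zic2 at 4.76, Grhl2 at 4.24, Zic5 at 4.09, Otx2 at 4.08, Sall2 at 1.96 and Fgf5 at 0.0504. Foxd3 spanned 9.06 to 21.2 FPKM in WT cells and so overlapped Tead2, which spanned 20.1 to 20.5, but not Pou3f1, which spanned 6.63 to 8.21. Zic2, Grhl2, Zic5 and Otx2 overlapped each other, Zic2 also reached into the range of Pou3f1, and Otx2 into that of Sall2. In KO cells the order was Tead2 at 26.0 FPKM, Zic2 at 9.98, Zic5 at 7.96, Grhl2 at 4.48, Foxd3 at 4.37, Pou3f1 at 4.02, Sall2 at 2.93, Otx2 at 1.52 and Fgf5 at 0.0355. Zic2 and Zic5 overlapped each other there, as did Grhl2, Foxd3 and Pou3f1. Foxd3 at 3.05 to 5.68 FPKM also overlapped Zic5 at 5.49 to 10.4 and Sall2 at 2.43 to 3.43. Tead2 at 24.6 to 27.3 FPKM stood clear of Zic2 at 6.36 to 13.6.

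The factors were then set among their own families, as a share of the summed FPKM of the family in each library. These shares were compared after they were seen, and with 2 libraries against 2, no exact permutation test of a share can reach 0.05. Tead2 held 40.6% and 48.6% of TEAD expression in WT1 and WT2 and 62.1% and 54.9% in KO1 and KO2, while the family sum stayed between 42.2 and 49.6 FPKM. Tead4 showed a log2 fold change of -0.91 with an adjusted p of 0.0549, Tead1 of -0.19 and Tead3 of 0.05, and none of them passed. Grhl2 held between 31.0% and 34.5% of GRHL expression in all 4 libraries, and neither Grhl1 (-0.23) nor Grhl3 (0.16) passed. Pou3f1 supplied 99.1% and 97.1% of class III POU expression in the WT libraries, against 86.6% and 86.7% in the KO libraries, with Pou3f3 at a log2 fold change of 2.08 that did not pass (adjusted p = 0.0701). Foxd3 supplied 75.7% to 96.9% of FOXD expression, and neither Foxd1 (-0.50) nor Foxd2 (0.14) passed.

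Otx1, the other widely known OTX gene, rose. It had 5 and 20 reads in WT1 and WT2, against 42 and 91 in KO1 and KO2, with a log2 fold change of 2.41 (SE 0.67, adjusted p = 0.04), and it lies on chromosome 11, whose median was itself higher in the KO libraries. With chromosome medians removed, the log2 fold change of Otx1 was 1.89 and did not pass (adjusted p = 0.082), while Sall1, on chromosome 8, stood at -2.05 and did pass (adjusted p = 0.0367). Otx2 held 99.0% and 90.4% of OTX expression in the WT libraries, against 80.3% and 45.8% in the KO libraries. Among the SALL genes, Sall3 fell by 2.49 on the log2 scale (SE 0.51, adjusted p = 0.0147), Sall1 did not pass with a log2 fold change of -1.52 at an adjusted p of 0.0811, Sall4 had one of -0.09, and Sall2 held from 2.21% to 6.61% of the family. Of 15 paralogs tested, 2 were called up and 1 was called down, against 11.0% and 10.7% of all genes tested. Their median log2 fold change was -0.09. The other call was Pou3f2, which had 0 and 2 reads in WT1 and WT2, against 23 and 13 in KO1 and KO2. Without KO2 no paralog was called up, and without KO1 or WT2 the numbers called down were 3 and 4.

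**Figure D3:**
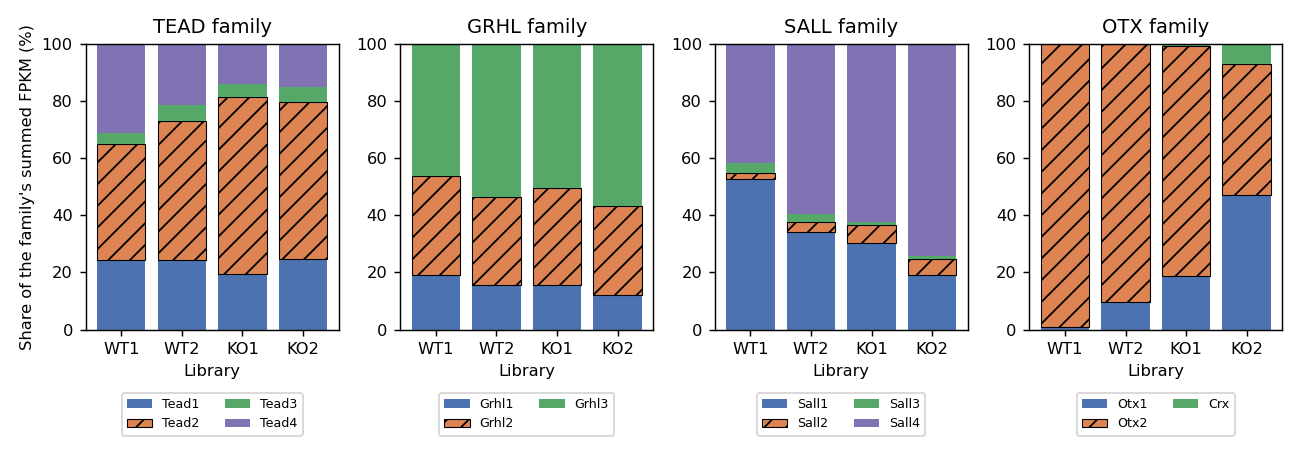
Share of the summed FPKM of 4 gene families taken by each gene in each library. Hatched bars are the factors described here, and genes under 1% in every library are not drawn. Tead2 took a larger share of TEAD expression in both KO libraries than in either WT library, and Grhl2 stayed between 31.0% and 34.5%.

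Transcripts beside or across the factors were also counted, and because the sources used here do not state whether strand was used, reads in an overlap cannot be assigned. Otx2os1, a noncoding RNA antisense to Otx2 that overlaps it, rose from 3 and 4 reads in WT1 and WT2 to 34 and 21 in KO1 and KO2 (log2 fold change 2.95, SE 0.65, adjusted p = 0.019 by edgeR's quasi-likelihood test), in libraries where Otx2 itself had a lower mean. Gm12688, a noncoding RNA that lies 648 bases from Foxd3 on the opposite strand, was singled out after its values were seen. It had 329 and 358 reads in WT1 and WT2, against 97 and 134 in KO1 and KO2, and it fell by 1.59 on the log2 scale (SE 0.27, adjusted p = 0.00857), beside the fall of Foxd3 by 1.79. Its WT libraries, at 21.5 and 20.5 CPM, did not show the difference between WT1 and WT2 seen in Foxd3. ENSMUSG00000120311, a noncoding RNA 4400 bases from Foxd3, had 22 and 12 reads in WT1 and WT2, against 21 and 14 in KO1 and KO2. Its log2 fold change was 0.026. Gm12682, 3919 bases away, had 9 and 5 reads against 0 and 1 and was not tested. Both were also named after their values were seen.

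Near Zic2, the noncoding RNA 2610035F20Rik lies 232 bases away on the opposite strand and was also singled out after its values were seen. It had 35 reads in WT1 and 14 in WT2, against 94 in KO1 and 52 in KO2, so KO1 was highest and WT2 lowest as in Zic2 and Zic5, and its log2 fold change of 1.55 did not pass (adjusted p = 0.11). Gm2164, which overlaps Pou3f1 on the opposite strand, had 10 and 9 reads in WT1 and WT2, against 0 and 1 in KO1 and KO2 and was too low to be tested. ENSMUSG00000120496, across Zic5, had from 8 to 13 reads (log2 fold change -0.10). Gm16136, Gm16137 and Gm16138, across Grhl2, had at most 8 reads in any library. Cd37, a gene of lymphoid cells, overlaps Tead2 on the opposite strand only from 44883056 to 44883068. It had 262 and 408 reads in WT1 and WT2, against 177 and 292 in KO1 and KO2. Its log2 fold change of -0.52 did not pass (adjusted p = 0.243 by edgeR's quasi-likelihood test).

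**Figure D4:**
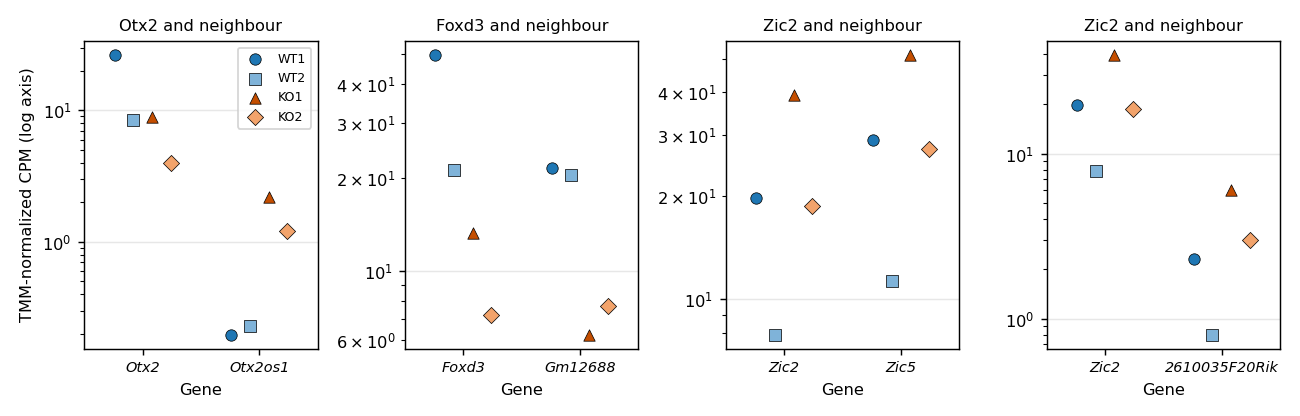
TMM-normalized CPM (log axis) of Otx2, Foxd3 and Zic2, each beside a gene that overlaps it or lies near it, with 1 point per library. Otx2os1 was higher in both KO libraries, Gm12688 was lower in both, and Zic5 and 2610035F20Rik were highest in KO1 and lowest in WT2, as Zic2 was.

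Both factors called down are genes of 1 exon. In the GENCODE M21 annotation Pou3f1 and Foxd3 have 1 exon in their only coding transcript, and the other 7 factors have coding transcripts of 2 or more exons. Among 395 coding genes tested whose coding transcripts all have 1 exon, 67 (17%) were called down and 19 (4.81%) up. Among 14312 coding genes with more exons, 1435 (10%) were called down and 1679 (11.7%) up. This comparison was made after the calls were seen and is given as a count only.

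Most other genes of the formative and primed states did not pass. Of 20 tested in a wider list, 5 were called up and 1 was called down, against 11.0% and 10.7% of all genes tested. Both KO libraries lay above both WT libraries for 10 of the 20 and below them for 2, against 33.2% and 32.5%. The median log2 fold change of the list was 0.61. Sox11, a SOX factor of the post-implantation embryo, had 171 and 203 reads in WT1 and WT2, against 849 and 893 in KO1 and KO2 (log2 fold change 2.22, SE 0.21, adjusted p = 0.0011 by edgeR's quasi-likelihood test). Lef1, a nuclear effector of Wnt signalling, rose by 2.08 on the log2 scale and Dnmt3a, a de novo DNA methyltransferase, by 1.60. The other genes called up were Nodal and Wnt8a. Etv4, a transcription factor downstream of FGF signalling, fell by 0.76 on the log2 scale. Without KO1 or KO2 the number called up was 2, without WT2 it was 7, and the number called down ran from 0 without KO2 to 3 without WT2.

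Most of the naive factors tested fell. Of 14 naive genes tested, 8 were called down and 2 were called up, against 10.7% and 11.0% of all genes tested. Their median log2 fold change was -1.12. Klf5 fell by 3.41, Zfp42 (Rex1) by 2.64 and Tbx3 by 2.53 on the log2 scale, while Dppa3 rose by 4.90 and Klf2, on chromosome 8, by 0.97. With the chromosome median removed, the log2 fold change of Klf2 was 0.43 and did not pass (adjusted p = 0.326). Without KO1 or KO2 the number called up was 1, and the number called down stayed between 7 and 9. Of the 8 general pluripotency genes, 0 were called in either direction by edgeR's quasi-likelihood test, with 1 up and 1 down at an unadjusted p under 0.05, and DESeq2 called 0 up and 1 down. Without WT2, 2 of them were called down, and without WT1, 1 was called up.

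Genes that act with the factors were also counted. Of 10 epithelial genes linked to Grhl2, 5 were called up and 0 down, against 11.0% and 10.7% of all genes tested. Their median log2 fold change was 1.03, in libraries where the mean of Grhl2 itself differed by 1.06-fold. At an unadjusted p under 0.05 the numbers were 7 up and 0 down, and DESeq2 also called 7 up and 0 down. Over all genes, 3074 were up and 3090 down at an unadjusted p, and DESeq2 called 2016 up and 2076 down. Cldn6, a tight junction protein, rose by 1.89, Esrp1, a splicing regulator of epithelial cells, by 1.78 and Epcam, an adhesion molecule, by 1.09 on the log2 scale, and the remaining calls were Krt18 and, on chromosome 8, Cdh1. With the chromosome median removed, Cdh1 had a log2 fold change of 0.46 in place of 1.00 and did not pass (adjusted p = 0.134), which left 4 epithelial genes called. Without KO1 the number called up was 2, and without WT1 or WT2 it was 8. Of 10 partners and targets of TEAD factors, 0 were called up, with 1 at an unadjusted p under 0.05 and 0 by DESeq2, and 1 was called down, with a median log2 fold change of -0.29. The gene called was Amotl2, a Yap1 target, which fell by 1.23 on the log2 scale, while Yap1 itself had a log2 fold change of -0.38 that did not pass (adjusted p = 0.194). Without KO2 no gene of that list was called down, and without WT2, 4 were called down and 2 up. Of the 4 FGF receptors, Fgfr1, on chromosome 8, rose by 0.69 and Fgfr2 by 1.57 on the log2 scale, and neither call held without KO1 or without KO2, although the log2 fold changes then were 0.65 and 0.73 for Fgfr1 and 1.77 and 1.32 for Fgfr2. With chromosome medians removed, Fgfr1 stood at 0.15 (adjusted p = 0.584) and Fgfr2 at 1.58 (adjusted p = 0.0514). In the main fit 0 of the 4 receptors were called down, but 1 was lower in KO cells at an unadjusted p under 0.05. With the replicate block 1 receptor was called down.

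**Figure D5:**
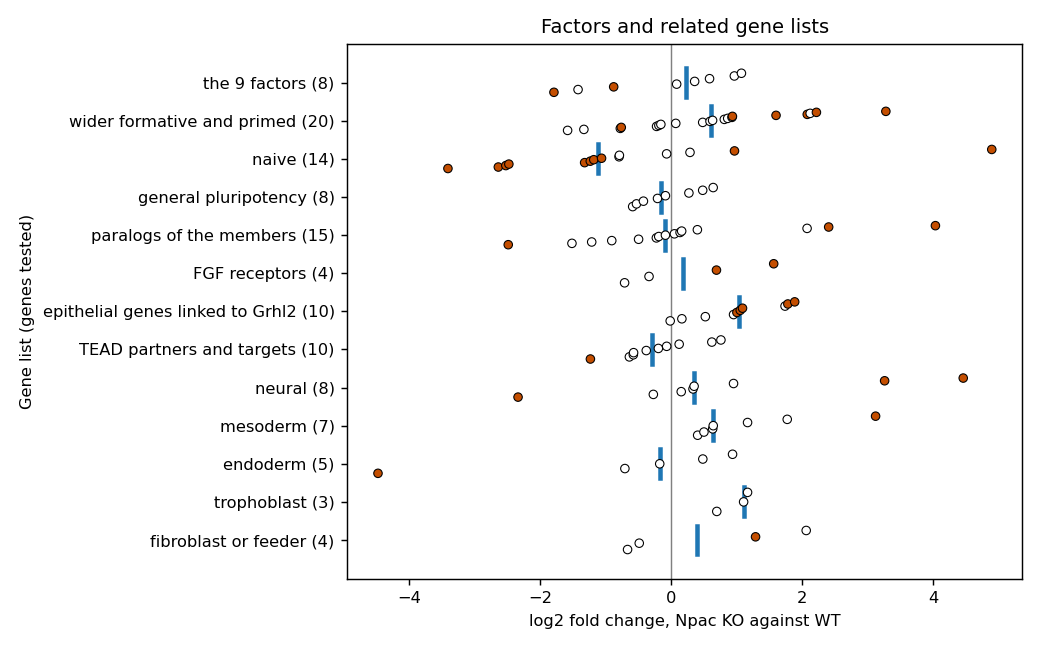
Log2 fold change of KO against WT for the tested genes of each list, with genes called filled and the list median as a blue bar. The 9 factors (8 tested) have a median of 0.22 and calls only below 0, the naive genes have a median of -1.12, and the epithelial genes one of 1.03.

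Markers of other cell types were low in both genotypes, with no list above 113 CPM in sum, where the general pluripotency genes summed to between 3046 and 4274 CPM. The summed level of 12 neural markers was 94.0 to 104 CPM in the WT libraries and 99.4 to 113 CPM in the KO libraries, with Dcx at 3 reads or fewer throughout. Of 8 neural markers tested, 2 were called up and 1 was called down, against 11.0% and 10.7% of all genes tested. Their median log2 fold change was 0.34. Sox1 fell by 2.34 on the log2 scale. En1, with at most 18 reads in any library, was among those called up. The mesoderm markers summed to 6.61 to 15.2 CPM in the WT libraries and 15.8 to 23.1 CPM in the KO libraries, with Msgn1 at the floor, and 1 of 7 tested was called up, namely Gsc at 1 and 7 against 29 and 42 reads. The endoderm markers summed to 28.3 to 29.3 CPM in the WT libraries and 14.8 to 21.7 CPM in the KO libraries. Afp and Foxa2 were at the floor. Of 5 endoderm markers tested, 0 were called up and 1 was called down, namely Sox7, which fell by 4.48 on the log2 scale. The median log2 fold change of the 5 was -0.18. Both KO libraries lay above both WT libraries for 2 of the 5 and below them for 2, against 33.2% and 32.5% of all genes tested. The trophoblast markers summed to 5.63 to 10.6 CPM in the WT libraries and 11.1 to 19.0 CPM in the KO libraries, with Prl3d1 and Tpbpa at the floor and 0 of 3 tested called by edgeR, by DESeq2 or at an unadjusted p under 0.05. The fibroblast or feeder markers summed to 41.1 to 76.2 CPM in the WT libraries and 49.9 to 60.0 CPM in the KO libraries, with Col3a1, Dcn, Lum and Postn at the floor, and Col1a1, on chromosome 11, rose by 1.29 on the log2 scale. With the chromosome median removed, the log2 fold change of Col1a1 was 0.77 and did not pass (adjusted p = 0.135), while Col1a2, which had 3 and 5 reads in WT1 and WT2 and 18 and 16 in KO1 and KO2, did (2.17, adjusted p = 0.0482). Without KO1 or without KO2 no neural or fibroblast marker was called up, Gsc was not called without KO2, and without WT2 the numbers called up were 5 for mesoderm and 2 for trophoblast. The part of such cells in the values of the 9 factors was not tested.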

How the data were processed

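RNA-seq of E14 mESCs comprised 2 WT and 2 Npac KO libraries. Per the submitters' processing notes, reads were handled with CASAVA, HISAT2 2.0.5 and featureCounts 1.5.0-p3 against mm10; the annotation and the use of strand are not given in the sources used here. The authors deposited raw counts, the number of reads assigned to each gene. The FPKM values deposited by the authors equal these counts per gene length and scaled library total, as recomputing them showed. Only 2.83% of 52073 gene IDs shared with GENCODE M21 (GRCm38) have the same coordinates there, so gene coordinates are given as in the deposited tables, whose build is uncertain, and are not mixed with the GRCm38.p6 windows.

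The fit used edgeR 4.0.16 in R 4.3.3 (TMM, filterByExpr, quasi-likelihood test, Benjamini-Hochberg adjustment over 18157 genes). A call needed a fold change above 1.5 and an adjusted p under 0.05. Means and SDs use CPM after TMM normalization, and intervals are 95% intervals of the fit. The common biological coefficient of variation was 0.235. Depth was 15850805 to 16965120 counts per library, a floor of 3 reads was used, and it covers counting error only. Alternatives used DESeq2 1.42.0, limma 3.58.1 on log2(FPKM + 0.1) or log2(FPKM + 1), other normalizations and filters, a replicate block, removal of chromosome medians, and leaving out each library. The edgeR step was also run on simulated counts to check the code. The simulated counts had less spread than these libraries, so that run does not show how reliable the calls are.

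The 9 factors and the gene lists were chosen with earlier results of these data known. Named genes are the 9 factors, Glyr1, genes overlapping a factor, and paralogs with at least 20 reads. Up to 3 called genes per list and direction, with a mean of at least 20 reads, are also named. Other genes are marked, stand in counts of 5 or fewer, or fall outside these rules, as Yap1 and Hprt do. RefSeq windows were matched by symbol for 6 of 9 factors. Some genes that were tested are not reported here.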

Additional observations from a re-analysis of the deposited data

How the results depend on the processing

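With all 4 libraries, no factor changed direction under any alternative. The number called up was 0, and it was 2 (Zic2 and Zic5) both with no filter on low counts and with a replicate block. With no filter, 2862 genes were called up and 2799 down over all genes, against 1999 and 1946 in the main fit. The number called down was 2, and it was 0 with limma-trend on FPKM at either pseudocount, where Foxd3 had log2 fold changes of -1.71 and -1.52 (adjusted p = 0.0727 and 0.0648) and Pou3f1 of -0.87 and -0.75 (0.0631 and 0.0611). Otx2 passed with DESeq2 (-1.43), with no filter (-1.42, adjusted p = 6.7e-04) and with the block (-1.33, 0.00191). Zic2 passed with no filter (1.08, 0.00202) and with the block (1.11, 0.00163), as did Zic5 (0.97, 0.00267, and 1.04, 0.00187). The cause was not tested.

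The replicate block pairs WT and KO libraries that share only a number, with 2 pairs. The differences WT1 - WT2 and KO1 - KO2 correlated at 0.312 across genes, and the block called 3128 genes up and 2994 down over all genes, against 1999 and 1946 without it.

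Leaving out 1 library assumes that the lone library varies like the other group. Calls over all genes then ran from 826 to 3571 up and from 821 to 3384 down, the factors called up from 0 to 2 and those called down from 0 to 3. The log2 fold change ran from -2.12 to -0.41 for Otx2, -1.05 to -0.72 for Pou3f1, -2.30 to -1.08 for Foxd3, 0.43 to 1.85 for Zic2, 0.43 to 1.77 for Zic5, 0.32 to 0.82 for Sall2, -0.139 to 0.284 for Grhl2 and 0.28 to 0.44 for Tead2. Of 37 other named genes, 6 changed sign without some library and 0 under the other alternatives. Their log2 fold changes ran from -0.56 to 1.49 for Foxd2, -0.38 to 0.25 for Sall4, -0.59 to 0.072 for Grhl1, -0.13 to 0.49 for Grhl3, -0.16 to 0.26 for Tead3 and -0.49 to 0.37 for ENSMUSG00000120496.

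Across the alternatives with all libraries, the calls ran from 3 to 7 up and 1 to 4 down in the wider list. In the naive list they ran from 1 to 2 up and 5 to 9 down, and in the epithelial list from 3 to 7 up. Among the paralogs they ran from 0 to 3 up and 0 to 4 down. Among the FGF receptors they ran from 0 to 2 up and 0 to 1 down, and among the TEAD partners from 1 to 2 down. At this depth, and with 2 libraries a group, a fall in Fgf5 or a difference under the floor could not be assessed.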
